A study of Mus musculus with 10 samples.

Results

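GABA-A receptor subunit transcripts were examined in the visual cortex of young mice after the loss of one eye. A list of 7 subunit genes was taken (Gabra2, Gabra3, Gabra4, Gabrb1, Gabrb2, Gabrd and Gabrg1), and every non-control probe set annotated with 1 of these symbols alone was used. This gave 6 probe sets of 12422, 1 each for 6 of the 7 genes; no probe set carries the symbol Gabra4 in the annotation used, so that Gabra4 was not analysed here. All mice were wild-type C57Bl6 and had one eye removed at postnatal day 14. At postnatal day 18, 4 days after the surgery, visual cortex was dissected. Deprived cortex (5 samples) is that of the hemisphere opposite the removed eye, and non-deprived cortex (5 samples) that of the hemisphere on the same side. Both groups therefore carry the surgery, and no unoperated mice were analysed here. According to the labels samples were pooled and 4 mice were used, without saying which animal went into which sample, so that p-values measure the spread between these samples, which may be partly technical.

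GABA-A receptors are pentameric chloride channels opened by the transmitter GABA, and they carry most of the fast inhibition in cortex. Alpha and beta subunits form the GABA binding site and most of the channel. A gamma subunit favours a place at the synapse, whereas a delta subunit replaces it in receptors outside the synapse that give a steady, tonic current. The subunit mix of cortex changes over the first postnatal weeks, and the maturation of cortical inhibition is known to set the time at which vision shapes the visual cortex. The question of the comparison is whether subunit transcripts differ between the hemispheres with and without their contralateral eye. In dissected tissue, fewer cells of a type and less RNA per cell cannot be told apart.

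Promoter sequence was available from RefSeq (GRCm38.p6) for 6 of the 7 genes (all but Gabrd), in 10 windows, since some genes have several annotated starts. The windows before the first start of Gabrb2, the subunit with the largest difference between the hemispheres, and of Gabra2, the one with the smallest, are shown. Each holds the 250 bases before the start, and capitals mark matches to the motifs searched.

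Gabrb2, chr11:42420190-42420439, plus strand: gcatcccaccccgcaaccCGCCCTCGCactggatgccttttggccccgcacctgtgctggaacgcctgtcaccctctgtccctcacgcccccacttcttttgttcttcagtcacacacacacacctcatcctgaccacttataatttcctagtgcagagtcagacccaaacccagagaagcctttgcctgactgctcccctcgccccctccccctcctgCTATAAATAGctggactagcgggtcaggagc

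Gabra2, chr5:71095850-71096099, minus strand: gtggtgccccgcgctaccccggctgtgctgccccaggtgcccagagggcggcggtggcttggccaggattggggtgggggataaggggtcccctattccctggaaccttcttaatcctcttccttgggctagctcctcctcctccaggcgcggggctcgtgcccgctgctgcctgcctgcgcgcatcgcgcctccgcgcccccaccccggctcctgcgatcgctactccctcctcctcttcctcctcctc

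Motifs of factors that neuronal activity is known to engage were searched on both strands, together with the TATA box. They were the EGR motif GCGNGGGCG, the MEF2 motif (CTA and TAG around any 4 bases), the CRE TGACGTCA, the AP-1 motif TGANTCA and TATAAA. The first Gabrb2 window had an EGR match on the minus strand, 232 to 224 bases before the start, and a MEF2 match 31 to 22 bases before it that holds a TATA box within it; the other 2 windows of Gabrb2 had no match. An EGR match was present in 4.7% of all 32851 windows, a MEF2 match in 3.2% and a TATA box in 12.4%. The Gabra2 window had none of these matches, and 70% of its bases were G or C against a median of 52.4% over all windows. Outside Gabrb2 the single kind of match among the members was a TATA box in both windows of Gabra3. These windows overlap and hold the same match, on the strand opposite to the gene. It lies 123 to 118 bases before one start and 235 to 230 before the other. None of the 10 windows had a CRE (1.55% of all windows) or an AP-1 motif (6.75%).

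None of the 4 tested subunits passed the threshold for a difference between the hemispheres. The values are MAS5 signals, the brightness of a probe set on one array in arbitrary units, and tests were run with limma on log2(signal + 16). Only probe sets at or above the 40th percentile of mean log2 signal were tested, 7453 in all. Gabra2, Gabrb1, Gabrb2 and Gabrd were above this filter, whereas Gabrg1 lay just below it, at percentile 39, and Gabra3 at percentile 37.2. Of the 4 tested members, none passed an adjusted p of 0.05 (Benjamini-Hochberg over all 7453), against 0% of all tested probe sets. At an unadjusted limma p under 0.05 the count was again 0 of 4, against 357 or 4.79% of all tested probe sets. The deprived and non-deprived arrays overlapped for all 6 member probe sets. Of all tested probe sets, 0.953% had groups that did not overlap, 0.483% with deprived higher and 0.47% with deprived lower.

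**Figure D1:**
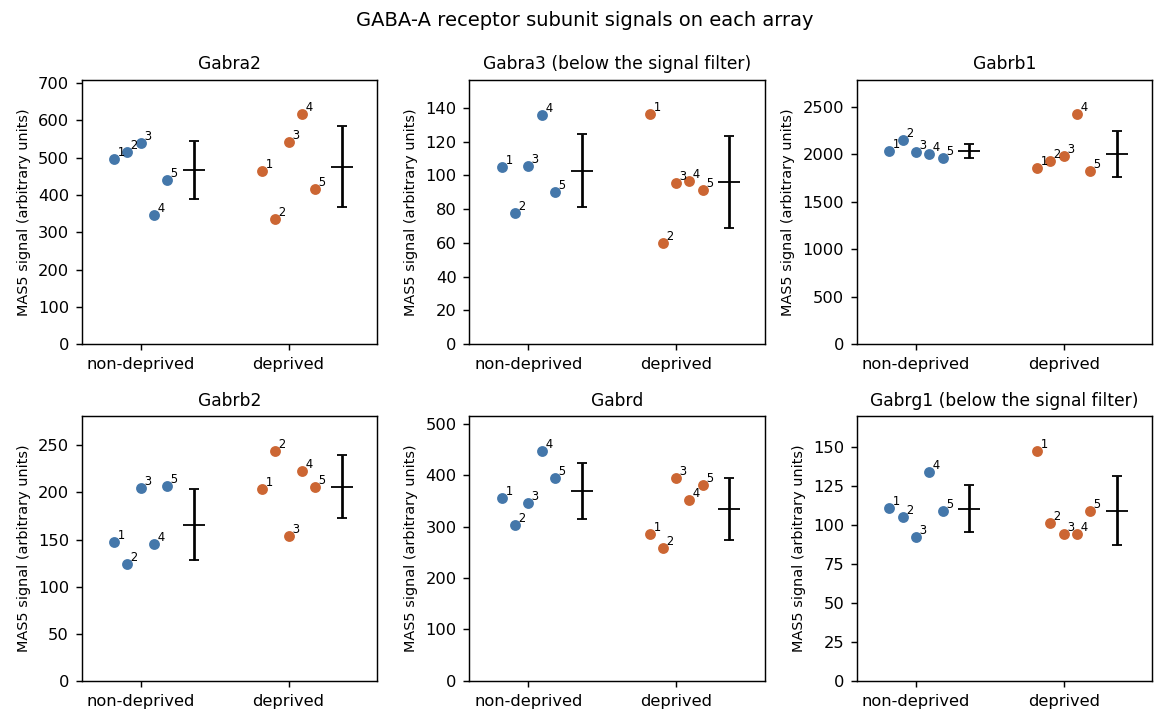
MAS5 signal (arbitrary units, linear axis from 0) of each subunit on each array; points are arrays with their replicate number, and the black bars give the mean and SD of each group (n = 5). In every panel the deprived points overlap the non-deprived ones, and Gabrb2 has the widest gap between means, 206 against 166.

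Among the alpha subunits, which shape how receptors respond to benzodiazepines, Gabra2 had nearly the same mean signal in both hemispheres. Its deprived signals were 465, 336.5, 543.2, 616.3 and 417.1 in replicates 1 to 5, and its non-deprived signals were 496.6, 514.5, 539.3, 345.3 and 440.4. The lowest arrays of the groups were alike, the highest array was deprived replicate 4, and 2 of 5 deprived arrays lay above the non-deprived median. The means were 476 ± 109 and 467 ± 77.3 (SD, n = 5 each), a log2 difference of 0.01 ± 0.16 (SE; limma adjusted p = 0.996). Its 95% interval ran from -0.33 to 0.36, that is from 0.795 to 1.28 times the non-deprived level. The sign of this estimate carries no weight: it turned negative under median scaling (-0.021) and without 4 of the 10 single arrays (deprived replicates 3 and 4, non-deprived replicates 4 and 5, lowest -0.09).

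Gabra3, the other alpha subunit on the array and one known for its expression in immature cortex, was dimmer than the filter allows. Its deprived signals were 136.2, 59.9, 95.7, 96.6 and 91.4, and its non-deprived signals were 104.9, 77.6, 105.4, 135.5 and 90. The highest value of each group was nearly the same, and the lowest array was deprived replicate 2. With no filter on low signal, its log2 difference was -0.10 ± 0.21 (SE; limma adjusted p = 0.98), with an interval from -0.56 to 0.36.

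The beta subunits, which the receptor needs to be assembled and carried to the membrane, gave the steadiest and the most different member of the family. Gabrb1 had deprived signals of 1850.3, 1927.5, 1975.1, 2419.5 and 1819, and non-deprived signals of 2036.9, 2152.5, 2017, 2003.7 and 1955.2. The non-deprived arrays lay within a narrow band, and 4 of the 5 deprived arrays lay below the non-deprived median while replicate 4 lay above every other array. The coefficient of variation was 12.2% among deprived arrays and 3.6% among non-deprived ones. The log2 difference was -0.03 ± 0.09 (SE; limma adjusted p = 0.992), and its interval, from 0.861 to 1.11 times the non-deprived level, was the narrowest of the 4 tested members. The estimate ranged from -0.10 without deprived replicate 4 to -8.18e-05 without deprived replicate 5. Its sign did not change in any alternative, but the interval includes 0, so that the sign carries no weight.

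Gabrb2, a beta subunit of many mature cortical receptors, had the largest difference. Its deprived signals were 204.1, 244, 153.5, 222.4 and 205.8, and its non-deprived signals were 147.9, 123.9, 204.4, 145.7 and 206.7. Non-deprived replicates 1, 2 and 4 were lower than all 5 deprived arrays, non-deprived replicates 3 and 5 reached the level of most deprived arrays, and all 5 deprived arrays lay above the non-deprived median of 147.9. The means were 206 ± 33.4 and 166 ± 37.6 (SD, n = 5 each). The log2 difference was 0.30 ± 0.17 (SE), or 23% higher, with an unadjusted p of 0.097 and an adjusted p of 0.992 in limma. The 95% interval ran from 0.958 to 1.58 times the non-deprived level. In size this difference exceeded that of 93.9% of all tested probe sets. That ranking takes no account of spread, and the SE of Gabrb2 was above the median SE of 0.13 over all tested probe sets. The estimate stayed above 0 in each of the 16 alternatives that could be computed, between 0.21 and 0.39. Their limma adjusted p-values ran from 0.798 to 0.9997. The alternatives reuse the same arrays, so that their shared sign is no independent support for a difference.

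Gabrd, the delta subunit of receptors outside the synapse, had deprived signals of 285.9, 258.3, 395.1, 351.3 and 380.2. Its non-deprived signals were 356.3, 302, 344.8, 446.9 and 394.1. Deprived replicates 1 and 2 were the lowest of the 10 arrays and non-deprived replicate 4 was the highest, while the others intermingled. The means were 334 ± 59.6 and 369 ± 54.6 (SD, n = 5 each), a log2 difference of -0.14 ± 0.14 (SE; limma adjusted p = 0.992). The interval ran from 0.737 to 1.11 times the non-deprived level. The estimate shrank to -0.058 without deprived replicate 2, to -0.073 without non-deprived replicate 4 and to -0.093 without deprived replicate 1.

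Gabrg1, a gamma subunit of restricted distribution in brain, had deprived signals of 147.2, 101.1, 93.9, 94 and 108.6 and non-deprived signals of 110.8, 104.8, 92.3, 133.7 and 109. Deprived replicate 1 and non-deprived replicate 4, which were also the highest arrays for Gabra3, stood above the rest. With no filter, the log2 difference was -0.02 ± 0.17 (SE; limma adjusted p = 0.99), with an interval from -0.40 to 0.35. As a scale for these intervals, the activity-regulated gene Fos differed by -0.88 ± 0.15 (SE) on the same arrays. Its limma adjusted p was 0.105, and it passed the threshold without non-deprived replicate 1. No interval of the 6 members reached the size of the Fos estimate in either direction. The 95% interval of Fos itself ran from -1.20 to -0.56, and the upper end of the Gabrb2 interval lies within that range of sizes. The activity-regulated genes Dusp6 and Junb differed less, by -0.62 ± 0.09 and -0.48 ± 0.14 (SE). The Gabrb2 interval, up to 0.66, exceeded both in size, and the unfiltered Gabra3 interval, down to -0.56, exceeded the Junb difference.

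The spread between arrays was set beside that of the 200 probe sets with the closest mean signal. After the group means were taken out, Gabra2 had an SD of 0.29 on the log2 scale, above that of 82.5% of its 200 neighbours (median 0.20). Gabrb1, at 0.12, lay above 28%. Gabrg1 lay above 13.5% and Gabra3 above 38.5%, and Gabrb2 and Gabrd were near the middle, at 56% and 54.5%.

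Subunit ratios were formed within each array, as the difference of 2 log2 values, for all 15 pairs of the 6 measured genes. Signals of different probe sets are not on one scale, so a ratio here says nothing of how many molecules of each subunit were present, and only its change between hemispheres is read. None of the 15 ratios passed an exact two-sided permutation test over all assignments of the 10 arrays to groups of 5 (adjusted over the 15, smallest 0.714), and none had an unadjusted p under 0.05. The smallest p that the design allows is 0.00794. The groups overlapped for each ratio. The 5 ratios with the largest differences all contain Gabrb2, which they share, and they are not independent of each other.

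The ratio of Gabrb2 to Gabrd differed most. Deprived arrays averaged -0.65 ± 0.45 on the log2 scale and non-deprived ones -1.10 ± 0.31 (SD, n = 5 per group), a difference of 0.44 or 1.36-fold (exact permutation p = 0.119). The ratio of the beta subunits, Gabrb1 to Gabrb2, was 3.19 ± 0.26 and 3.52 ± 0.34 on the log2 scale (SD, n = 5 each), a difference of -0.33 ± 0.19 (SE; exact permutation p = 0.119, adjusted 0.714). The ratio of the alpha subunits, Gabra2 to Gabra3, differed by 0.11 ± 0.25 (SE; exact permutation p = 0.667), and that of delta to gamma1, Gabrd to Gabrg1, by -0.12 ± 0.20 (SE; exact permutation p = 0.579). Both of the last estimates changed sign when one array was left out. Gabra2 to Gabra3 was at -0.08 without non-deprived replicate 4, and Gabrd to Gabrg1 at 0.03 without deprived replicate 1.

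**Figure D2:**
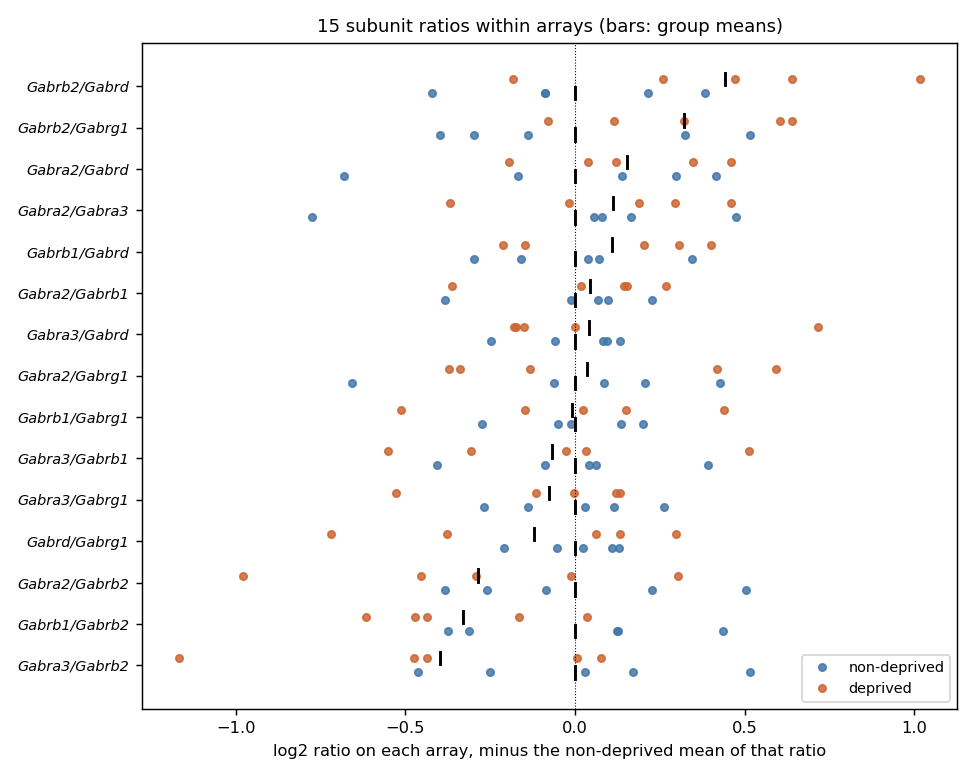
Log2 ratio of each of the 15 subunit pairs on each array, minus the non-deprived mean of that pair; points are arrays and black bars are group means. The groups overlap in each row, and the rows with the widest gaps between bars, from 0.44 for Gabrb2/Gabrd to -0.40 for Gabra3/Gabrb2, contain Gabrb2.

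In mouse, 4 of the 7 genes lie together on chromosome 5. Among protein-coding genes of the RefSeq annotation their order there is Gabrg1, Gabra2, Cox7b2, Gabra4 and Gabrb1. Gabra4 and Gabrb1 lie on opposite strands, with annotated starts 387 bases apart. Gabrb2 is on chromosome 11, Gabrd on chromosome 4 and Gabra3 on chromosome X. The estimates for neighbours in this cluster had both signs, and none passed. After group means were taken out, Gabra2 and Gabrb1 had a Pearson r of 0.60 over the 10 arrays (exact permutation p = 0.114). Their Spearman rho was 0.70 (exact permutation p = 0.0462, the smallest for rho of all pairs and not adjusted over them). Without the 2 arrays farthest from the median of Gabra2, r was 0.86. With single arrays left out, however, r ran from 0.39 to 0.67. Gabrg1 had negative estimates with both, r = -0.47 with Gabra2 and -0.46 with Gabrb1 (exact permutation p = 0.219 and 0.261; rho -0.58 and -0.45, exact permutation p = 0.111 and 0.213). Without the 2 arrays farthest from the median of Gabra2 or of Gabrb1, in that order, r was -0.58 and -0.52.

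The largest r of the family was that of Gabra3 and Gabrg1, the dim pair, at 0.63 (exact permutation p = 0.106). Their rho was 0.37 (exact permutation p = 0.324), and r was 0.45 without the 2 arrays farthest from the median of Gabra3. None of the 15 values of r passed after adjustment over the 15 (all at 0.783 or above). Over all pairs of the 7453 tested probe sets, 90% of r values lay between -0.613 and 0.62, and 10.3% were 0.5 or above. Gabra3 with Gabrg1 lay just above this band and the other 14 pairs within it. Gabra3 and Gabrg1 are below the signal filter, whereas the band was drawn only from probe sets that passed it.

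**Figure D3:**
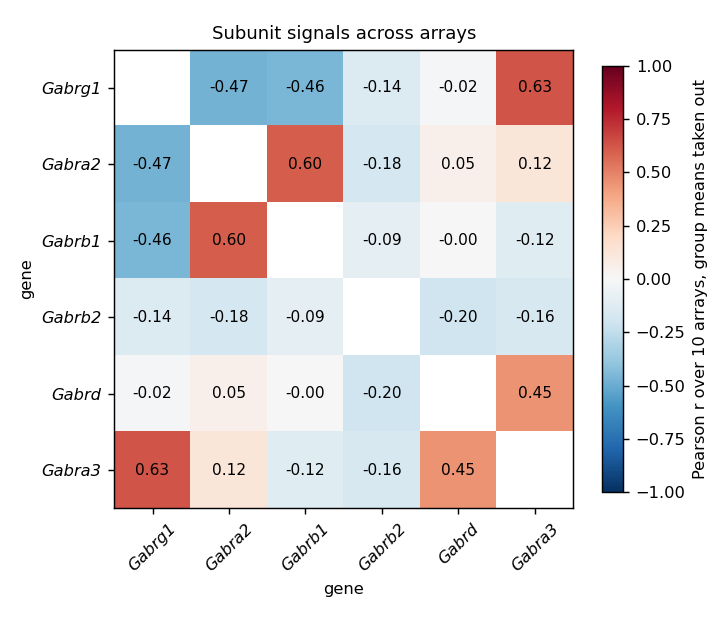
Pearson r between subunit signals over the 10 arrays, on the log2(signal + 16) scale after each group mean was taken out; genes of the chromosome 5 cluster come first. Gabra2 with Gabrb1 (0.60) and Gabra3 with Gabrg1 (0.63) are the highest values, and Gabrg1 has negative values with both of its measured neighbours.

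Tested probe sets annotated with 1 other gene alone were ranked by their likeness to each member in this variation. The first was Fyn for Gabra2 (r = 0.95), Atp1b2 for Gabra3 (0.96) and Smim20 for Gabrb1 (0.95). It was Tenm4 for Gabrb2 (0.89), Fkbp1a for Gabrd (0.92) and Rpap3 for Gabrg1 (0.95). The next were Stom (0.92), Mtcp1 (0.95), Znrf1 (0.86), Rapsn (0.89), Snrk (0.90) and Dld (0.95), in the same order. These are the best over 10 arrays of those among the 7453 tested probe sets that have 1 gene symbol. The median tested probe set has a best match of 0.945. That benchmark is over a wider choice, all 7453, with probe sets of the same gene and those without 1 symbol included. Best matches near this size are usual on these arrays.

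Other genes of GABA signalling were read from lists, each gene by its brightest tested probe set. Of 74 genes listed, 44 had a probe set and 37 were tested. None passed an adjusted p of 0.05 in limma, against 0% of all tested probe sets. Of the estimates, 13 were above 0 and 24 below, against 3875 above and 3578 below over all tested probe sets. Whether the lists differ from that split was not tested. The median log2 difference was -0.04 against 0.0066 over all tested probe sets. Of the further GABA-A and GABA-rho subunits on the lists, Gabra6, Gabrg3, Gabrr1 and Gabrr2 had probe sets, and all were below the signal filter. Gabrg3 ranged from 69.1 to 162.7 over the 10 arrays. Gabra6, known from cerebellar granule cells, ranged from 4.6 to 61.9 on one probe set and from 32 to 75.2 on the other, and Gabrr1 and Gabrr2, known from retina, lay between 9.3 and 45.6.

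Of 20 tested genes of receptor trafficking, anchoring and modulation, none passed, 14 estimates were below 0 and the median was -0.06. The smallest p belonged to Zdhhc3, a palmitoyltransferase of gamma subunits, whose signal was 632 ± 100.3 deprived and 723 ± 40.7 non-deprived (SD, n = 5 per group; log2 -0.20 ± 0.11 SE, limma adjusted p = 0.992). Next was Prkce, a protein kinase C, at -0.18 ± 0.11 (SE). Gphn, gephyrin, the scaffold of inhibitory synapses, and Gabarap, a receptor-binding trafficking protein, were named after their values were seen. They had log2 differences of -0.17 ± 0.11 and 0.03 ± 0.12 (SE). The brightest of the list, Prkcb and the clathrin adaptor subunit Ap2m1, had 0.08 ± 0.08 and -0.03 ± 0.08 (SE). Their second probe sets had estimates of the opposite sign, -0.14 ± 0.08 for Prkcb and 0.04 ± 0.11 for Ap2m1 (SE).

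The 6 tested genes of GABA synthesis, transport and breakdown had a median of -0.0094, with 3 estimates above and 3 below 0. Slc32a1, which loads GABA into vesicles, had 4498 ± 1001 against 4063 ± 534 (SD, n = 5 each; log2 0.13 ± 0.14 SE). Gad1, which makes GABA, was at -0.04 ± 0.11 (SE), and the amino acid transporter Slc38a2 at 0.11 ± 0.17 (SE). Of 8 tested genes of chloride transport and pH, 4 estimates were above and 4 below 0. Slc12a5, the transporter KCC2 that keeps chloride low in mature neurons, had 271 ± 60.9 against 239 ± 40.4 (SD, n = 5 each; log2 0.17 ± 0.16 SE), and the kinase gene Stk39 had -0.12 ± 0.12 (SE). The bright Clcn3 and Slc4a3 had 0.01 ± 0.10 and 0.06 ± 0.13 (SE). The 3 dimmer probe sets of Clcn3 had estimates below 0, from -0.17 to -0.02. The 3 tested genes of GABA-B and glycine receptors were all slightly below 0: Glrb at -0.12 ± 0.10, Gabbr1 at -0.06 ± 0.08 and Glra1 at -0.03 ± 0.17 (SE).

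**Figure D4:**
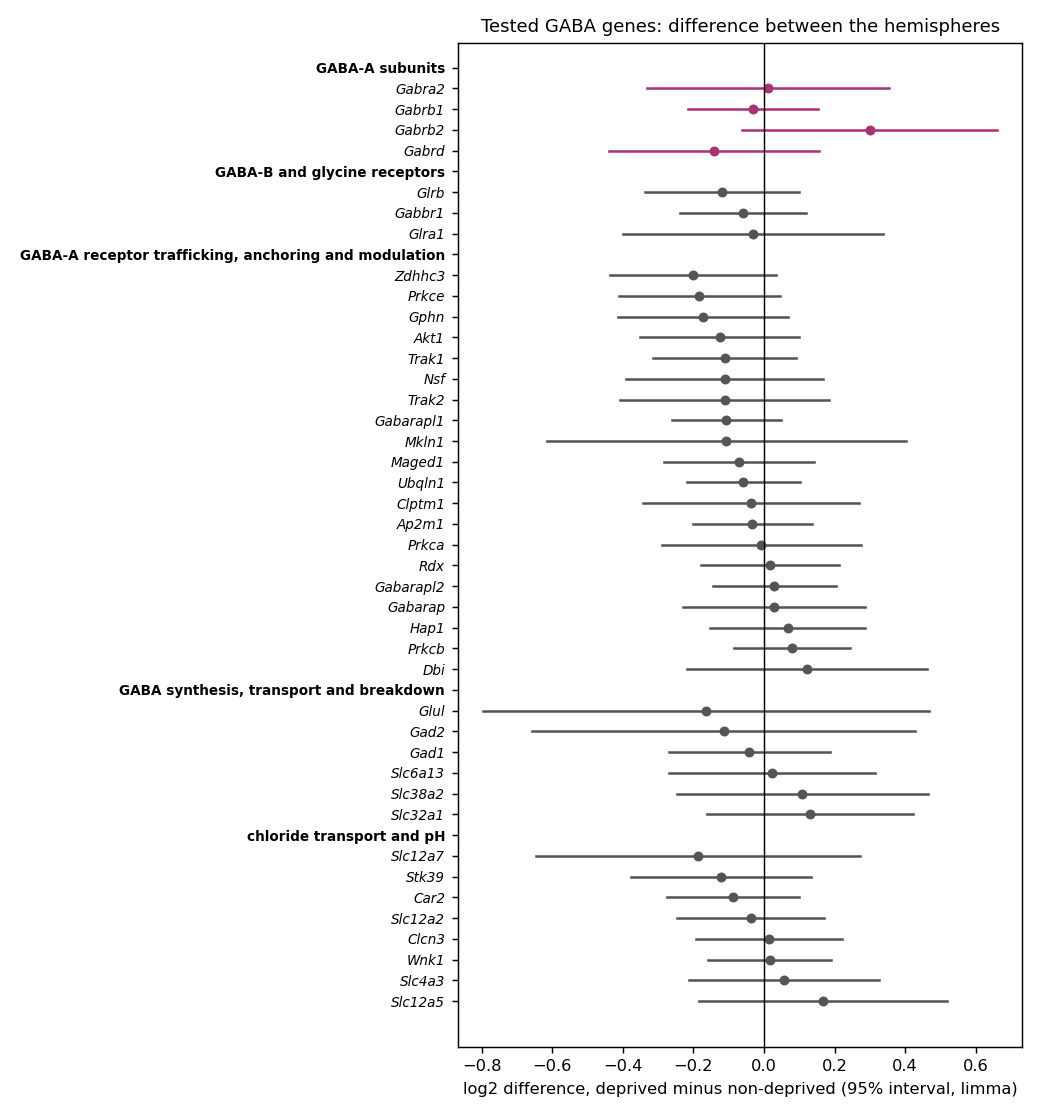
Log2 difference, deprived minus non-deprived, with its 95% limma interval for the 4 tested subunits (purple) and 37 other GABA genes by list (grey). Each interval includes 0, and Gabrb2, at 0.30, is the farthest estimate from 0.

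The tissue carried cortical neuron markers on all arrays, with Tbr1 of deep-layer neurons between 5161.8 and 7633.3. Of the marker genes of neurons, glia, vessels and neighbouring brain regions, none passed in limma. At an unadjusted limma p under 0.05 were 4.79% of all tested probe sets. Of 8 astrocyte markers, 3 were under it, with higher estimates in deprived cortex (Agt 0.99, Slc1a2 0.38 and Slc4a4 0.35, log2). By brightest probe set, the remaining astrocyte markers ran from -0.12 (Aldoc) to 0.09 (Gfap). Also under 0.05 were 2 of 7 neuron markers with lower estimates (Tubb3 -0.25 and Nefm -0.23) and 1 of 8 of endothelium and meninges (Igf2, 0.30). By brightest probe set, none of 9 interneuron or 8 microglia markers was under 0.05, nor any marker of the remaining lists. A second probe set of Tubb3 was at 0.03. These genes were named after their values were seen. The summed signal of each of the 11 marker lists overlapped between the groups, with ratios of means from 0.959 (cerebellum) to 1.22 (endothelium and meninges), in which the brightest genes weigh most. The part of these markers in the subunit values was not tested. The summed signals of the 9 interneuron markers were at 1.01, of the 7 neuron markers at 0.968 and of the 8 astrocyte markers at 0.994. Array medians lay between 191 and 209, and arrays of 1 group correlated at 0.957 to 0.979.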

How the data were processed

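Visual cortex RNA from 10 samples (5 deprived, 5 non-deprived, grouped by title) was read on 1 one-colour Affymetrix array each. The authors deposited signal intensities made with MAS5, per the submitters' processing notes. Its version is not given in the sources used here, and detection calls were not used. About 10 µg of RNA was labelled, per the labels' protocols. Of 12488 probe sets, 66 controls were dropped. Among the others, 10833 have 1 gene symbol, 396 several and 1193 none; symbols were updated through Entrez IDs (10817 matched). Intensities became log2(value + 16), which understates the change of dim probe sets. Limma 3.58.1 (R 4.3.3, lmFit, eBayes with trend, no covariate) compared deprived with non-deprived. On simulated data with independent noise it recovered 67% of 1.5-fold and 88.8% of 2-fold changes. The simulation held more changed probe sets than passed on the real arrays, so that these shares may not hold for them. Precision is limited by how many arrays there are. Ratios and correlations used exact permutation of arrays (for correlations within groups, 14400 arrangements, added after the values were seen). Alternatives were other pseudocounts, filters and scalings, a replicate block, and each array left out. Genes outside the family were named as the 2 smallest p and 2 brightest of each list, and for each member the 2 most correlated genes. Members and lists were chosen with earlier results of these data known.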

Additional observations from a re-analysis of the deposited data

Results flagged for a closer look

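Of 42 groups of 5 arrays examined (6 genes and 15 ratios in each hemisphere), 3 held 1 array far from the other 4; chance flags about 1 in 20. For Gabrb1, deprived replicate 4 had a signal of 2419.5, against 1975.1 for the next deprived array. For Gabrg1, deprived replicate 1 had 147.2, against 108.6 for the next. For the log2 ratio of Gabra3 to Gabrd, deprived replicate 1 had -0.99 while the deprived mean was -1.66.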

How the results depend on the processing

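No tested subunit and no subunit ratio passed an adjusted p of 0.05 under the alternatives run (17 for the subunits, 16 for the ratios). Gabra3 and Gabrg1 were tested only without a filter. Using the mean of all probe sets of a gene changes no ratio, since each gene has 1. The count over all tested probe sets, 0 with all arrays, became 2 when the pseudocount was 64, again 2 when the filter stood at percentile 60, and 6 under the replicate block (Capn1, Dusp1, Dusp6, Fos, Junb and Nr4a1, all lower in deprived cortex), and 0 to 5 with single arrays left out (5 without non-deprived replicate 1, Fos included, and 1 without deprived replicate 4). No member was among them, and the cause was not tested. Gabrb2 (0.21 to 0.39), Gabrd (-0.21 to -0.058) and Gabrb1 (-0.10 to -8.18e-05) kept their sign, in alternatives that share arrays. Gabrb2 is below the filter at percentile 60 and was not tested there. Gabra2 had -0.021 under median scaling and -0.089 to 0.12 with single arrays left out, Gabra2 to Gabra3 -0.082 to 0.23, and Gabrd to Gabrg1 -0.22 to 0.029. Same-numbered arrays correlated at 0.0222 to 0.227 in their deviations, with 9 of 10 arrays closest to their own number, and the labels give no pairing. With the block, Gabrb2 stayed at 0.30 (limma adjusted p = 0.798). The ratio test within numbers cannot reach 0.05.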
